A study of Mus musculus with 51 samples.

Results

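In mouse embryos made by in vitro fertilisation (IVF), a set of genes reaches its highest level at the 2-cell stage, the time of the main wave of transcription from the embryo's own genome. The 150 genes described here, of 18194 measured, are those that stood highest at the IVF 2-cell stage relative to the unfertilised oocyte and to every other IVF stage. For each gene the score was the mean of the 3 IVF 2-cell embryos minus the highest of the means of metaphase II (MII) oocytes and of IVF 1-cell embryos, 4-cell embryos, 8-cell embryos, morulae and blastocysts. The scores of the 150 genes ran between 1.78 and 5.34 on the log2 scale, with a median of 2.28, and these values chose the genes. The cut was not a gap: Pias3, Plk3 and Synm were the last genes inside at 1.7934, 1.7931 and 1.7786, and Flywch1, Shmt1 and Cfap52 the first outside at 1.7767, 1.7741 and 1.7696. Cloned embryos had no part in the score, though they were among the arrays that chose the probe set of each gene. The question asked of the clones was whether the same genes peaked at the 2-cell stage there too.

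The cloned embryos were made by transferring the nucleus of a Sertoli cell, the support cell of the testis tubule, into an oocyte, which was then activated. Donor cells were B6CBF1 and recipient oocytes B6D2F1, while IVF embryos were B6D2F1×B6D2F1 and the MII oocytes B6D2F1. Clones and IVF embryos thus differ in strain as well as in origin. Donor nuclei were male, while IVF embryos differed among themselves in the Y-linked gene Eif2s3y. The signal of bacterial hybridisation controls, given below, also differed between the 2-cell groups. The part of each in a difference cannot be told apart. There were 5 clones at each of 6 stages, against 3 IVF embryos at each stage and 3 MII oocytes. Clones and IVF embryos were collected 16, 32, 48, 62, 72 and 84 hours after activation or sperm addition, as 1-cell, 2-cell, 4-cell, 8-cell, morula and blastocyst embryos, and all were grown in KSOM medium. Each of the 51 Affymetrix arrays held the amplified RNA of 1 oocyte or embryo. The 3 IVF and 5 clone numbers mark separate embryos, and nothing given says whether embryos of 1 group shared a litter or a day of work. The values are log2 and relative to a baseline of each probe set, so a value near 0 is no measure of absence, and only differences between arrays carry meaning. An embryo with fewer transcripts of a gene cannot be told apart from an embryo in which fewer blastomeres carried them.

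The first divisions of the mouse embryo run on RNA and protein stored in the oocyte. A minor wave of transcription begins in the 1-cell embryo, and the major wave follows at the 2-cell stage, when gene families found almost only at that time are switched on for some hours together with stress-responsive and housekeeping genes. Those families include the Obox homeobox genes, the Tcstv genes, Zfp352 and the PRAME and SPEER families, and many of them are silenced again by the 4-cell stage. In nuclear transfer the donor nucleus has to start the same programme from the chromatin of a differentiated cell.

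The promoters of 5 of these genes are shown first, 4 from gene families of the 2-cell embryo and 1 of a stress gene, since the values of these genes are described below. Of the 150 genes, 118 had a promoter in RefSeq (GRCm38.p6), and the background is the 14369 measured genes that had one. Zfp352, a zinc finger gene transcribed at the 2-cell stage, lies at chr4:90218820-90225687. The 250 bases before its start (chr4:90218570-90218819, plus strand) are given with TAATCC, the reverse complement of GGATTA, and TATAAG in capitals.
Zfp352: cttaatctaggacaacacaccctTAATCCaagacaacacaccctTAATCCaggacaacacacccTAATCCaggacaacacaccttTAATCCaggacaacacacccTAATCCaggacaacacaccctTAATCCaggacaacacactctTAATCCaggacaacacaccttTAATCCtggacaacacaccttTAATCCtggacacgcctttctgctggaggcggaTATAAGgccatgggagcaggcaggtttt
GGATTA, searched on both strands, is the core sequence read by homeodomains of the OTX type. The window holds it 9 times, from 227 to 61 bases before the start, each time inside a repeated stretch of about the same letters. Of the 14369 genes, 5 held 3 or more copies in these 250 bases and only Zfp352 held 5 or more.
AF067061, a gene of the Tcstv cluster on chromosome 13, was another of the 5, with 3 copies (chr13:120262845-120263094, plus strand, GGATTA or TAATCC and TATAAG in capitals).
AF067061: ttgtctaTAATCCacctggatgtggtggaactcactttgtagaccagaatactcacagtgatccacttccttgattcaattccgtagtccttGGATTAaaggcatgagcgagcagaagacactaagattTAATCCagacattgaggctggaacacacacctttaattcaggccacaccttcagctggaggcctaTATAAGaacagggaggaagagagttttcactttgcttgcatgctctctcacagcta
Obox3, an oocyte-specific homeobox family gene (chr7:15625306-15639777), and Rfpl4b, a RING finger family gene (chr10:38820541-38821779), have a TATAAG at the place of a TATA box. Their promoters are at chr7:15639778-15640027 and chr10:38821780-38822029, both on the minus strand, with GGATTA and TATAAG in capitals.
Obox3: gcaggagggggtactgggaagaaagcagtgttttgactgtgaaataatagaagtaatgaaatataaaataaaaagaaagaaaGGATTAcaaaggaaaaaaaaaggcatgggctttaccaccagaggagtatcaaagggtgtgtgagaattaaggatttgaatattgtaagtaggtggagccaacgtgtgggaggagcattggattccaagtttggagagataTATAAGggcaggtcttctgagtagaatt
Rfpl4b: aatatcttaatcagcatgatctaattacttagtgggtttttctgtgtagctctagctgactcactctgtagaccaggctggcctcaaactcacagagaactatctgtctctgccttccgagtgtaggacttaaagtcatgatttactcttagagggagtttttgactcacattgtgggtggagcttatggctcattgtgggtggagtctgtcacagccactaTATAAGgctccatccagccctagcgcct
In Zfp352, Obox3 and Rfpl4b the TATAAG begins 28 bases before the start. For contrast, Gadd45a, a growth arrest gene, has a promoter of another kind at chr6:67037408-67037657 (minus strand), with a GC box (CCGCCC, the reverse complement of GGGCGG) and a CCAAT box in capitals and no TATAAG.
Gadd45a: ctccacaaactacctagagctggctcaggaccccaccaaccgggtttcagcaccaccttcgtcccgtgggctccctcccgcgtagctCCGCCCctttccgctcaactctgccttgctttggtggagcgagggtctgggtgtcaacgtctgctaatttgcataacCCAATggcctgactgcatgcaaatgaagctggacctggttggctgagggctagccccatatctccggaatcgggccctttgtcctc

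Across the 118 promoters of 300 bases, GGATTA was found in 16 (13.6%), against 7.30% of all genes. The E-box CACGTG was found in 20 (16.9%), against 10.3% of all genes, and the NF-Y site CCAATCA in 17 (14.4%), against 10.7%. The common core elements stood at their background. GGGCGG was in 57.6% of the members and 57.5% of all genes, CCAAT in 45.8% and 42.0%, and TATAAA in 10.2% and 11.5%. A TATAAG between 45 and 15 bases before the start was in 5 members (4.24%), namely Rfpl4b, Obox3, Gm12789, Nrarp and Zfp352, against 1.38% of all genes. That window was searched only after the promoters had been read. The PAR bZIP site, read by the Dbp and Tef family, was in 0 members and 0.181% of all genes, and a site of the kind read by the 2-cell factor Dux was in 0 members and 0.139% of all genes. In all, 15 motifs were searched, the members overlap in sequence where they are of 1 family, and a match is a description of the letters and not evidence that a factor binds there.

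Most of the genes peaked at the 2-cell stage in clones as well. The median of the 150 genes on an array lay between 2.60 and 3.13 in the 5 cloned 2-cell embryos, against 3.62 to 3.92 in the 3 IVF 2-cell embryos, whose values chose the genes, so that their height is favoured by the choice. On the clone arrays of every other stage that median lay between -0.19 and 0.30. Within the clones, which were tested on their own with limma, 128 of the 150 genes were higher at the 2-cell stage than at the 1-cell stage (85.3%, against 16.7% of all genes). The median difference was 3.16 on the log2 scale, against -0.01 over all genes. Compared with the 4-cell stage 109 were higher (72.7%, against 14.7% of all genes), with a median difference of 1.90, against -0.04 over all genes. A gene was called as peaking where the 2-cell stage exceeded each of the 5 other clone stages with an adjusted p under 0.05. By this rule 92 of the 150 genes peaked in clones (61.3%), against 2.63% of all genes.

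**Figure D1:**
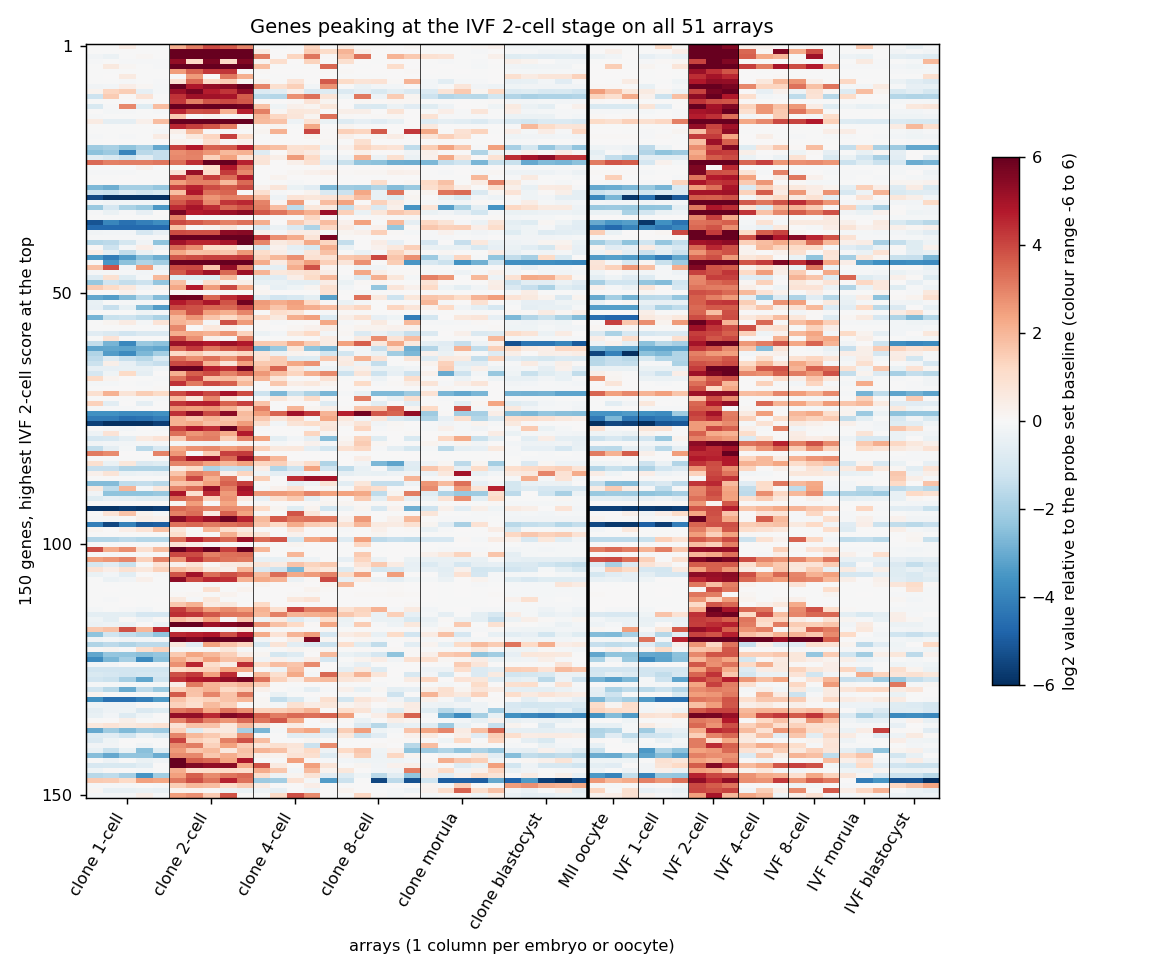
Relative log2 value of each of the 150 genes (rows, highest IVF score at the top) on each of the 51 arrays (columns, grouped by stage, clones left of the thick line and oocytes and IVF embryos right of it). The 2-cell columns are red for most genes on both sides, and the clone 4-cell and 8-cell columns are paler than those of IVF embryos.

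The remaining comparisons among clones gave 118 genes higher at the 2-cell than at the 8-cell stage (18.2% of all genes), 121 higher than in morulae (18.6% of all genes) and 125 higher than in blastocysts (29.0% of all genes). Few went the other way. Called lower at the 2-cell stage were 1 gene against the 1-cell stage (24.6% of all genes), 1 against the 4-cell stage (15.1%) and 1 against the 8-cell stage (19.0%). Against morulae 2 were called lower (18.2% of all genes), and against blastocysts 3 (24.6%). The highest clone mean was at the 2-cell stage in 128 of the 150 genes (10.7% of all genes). In the other 22 it was at the 1-cell stage in 2, and at the 4-cell stage, the 8-cell stage, the morula and the blastocyst in 5 each. With the signal of the bacterial hybridisation controls as a covariate, 74 genes peaked in clones (49.3%, against 1.97% of all genes). Those controls read 0.57 to 1.22 on the clone 2-cell arrays, -1.02 to 0.50 on the clone 1-cell arrays and -0.73 to -0.23 on the IVF 2-cell arrays. After quantile normalization of the clone arrays 64 genes peaked.

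**Figure D2:**
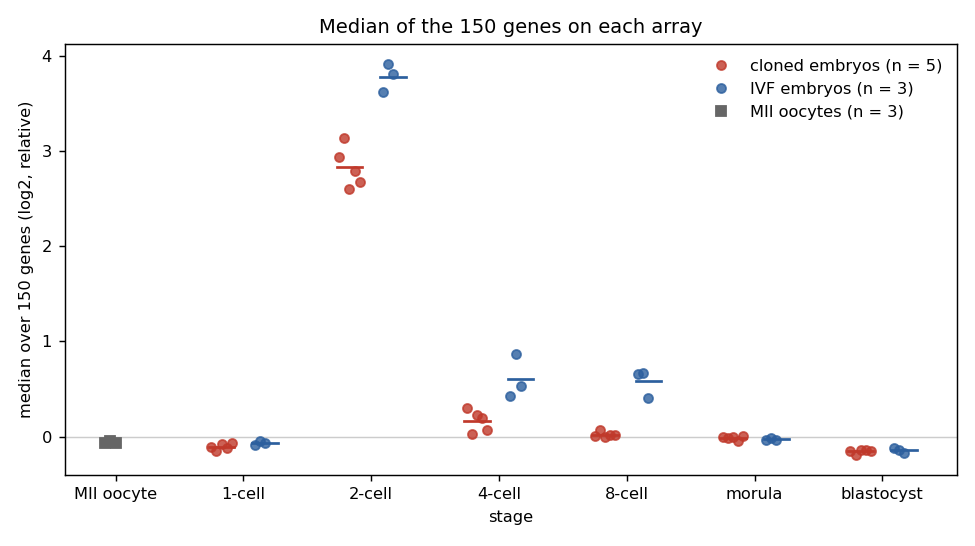
Median over the 150 genes (log2, relative) on each array by stage, with clones left and IVF embryos right at each stage, 1 point for each embryo and a line at the group mean. The 5 clones lie between 2.60 and 3.13 at the 2-cell stage and the 3 IVF embryos between 3.62 and 3.92.

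The score asked of the IVF series can be computed in the clones, as the 2-cell mean minus the highest other clone mean. Its median over the 150 genes was 1.65, with quartiles of 0.62 and 2.83, against -0.65 over all genes. In 40 genes the clone score was at least as high as the IVF score, in 92 it was at least 50% of it, in 36 it was between 0 and 50% of it, and in 22 it was below 0. The range was wide, from -2.62 in Gpr50 to 7.39 in Gm4850.

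**Figure D3:**
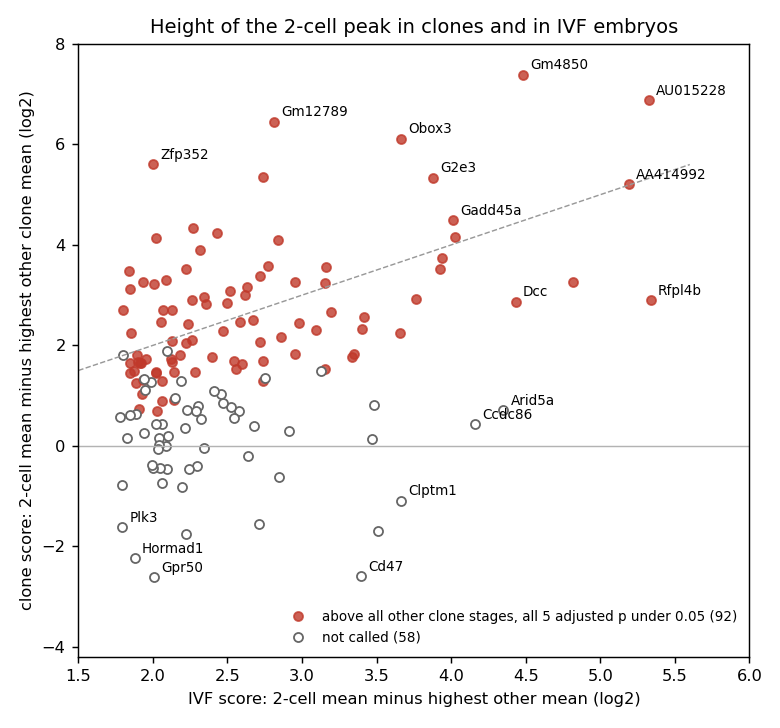
IVF score (horizontal) and clone score (vertical) of each gene in log2 units, with genes that passed all 5 clone tests filled (92) and the others open (58). The dashed line marks equal scores; Gm4850, AU015228, Obox3, Gm12789 and Zfp352 lie above it, and Gpr50, Cd47, Hormad1 and Plk3 lie below 0.

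The gene families known from the 2-cell embryo had the highest share of genes called in clones among 10 role groups. Role groups were made after the 150 genes were known and describe them only, and each count below is to be read beside the 61.3% of all 150 genes and the 2.63% of all genes that peaked in clones. Of 16 genes of these families 15 peaked in clones, with a median clone score of 3.70. Obox3 read 6.81, 7.67, 5.98, 7.34 and 6.53 in the 5 cloned 2-cell embryos, against 7.12, 7.43 and 6.66 in the 3 IVF embryos. The groups overlapped, and every clone was far above the clone means of 0.30 at the 1-cell and 0.75 at the 4-cell stage. In clones Obox3 was 6.56 ± 0.42 higher (estimate ± standard error, limma) at the 2-cell than at the 1-cell stage (adjusted p = 4.57e-13) and 6.12 ± 0.42 higher than at the 4-cell stage (adjusted p = 1.40e-11).

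Zfp352, whose promoter holds the 9 copies of GGATTA, read 6.84, 5.58, 6.63, 8.82 and 6.27 in clones at the 2-cell stage, against 9.81, 8.94 and 7.77 in IVF embryos. Clone 4 lay among the IVF embryos and the other 4 clones lay below all of them. The clone rise from the 1-cell stage was 6.99 ± 0.70 (adjusted p = 3.39e-09), and the 2-cell level was 5.61 ± 0.70 above that of 4-cell clones (adjusted p = 5.24e-07, limma). At the 4-cell stage Zfp352 averaged 1.22 in clones and 6.84 in IVF embryos, so its IVF score was only 2.00 while its clone score was 5.61. A second probe set of Zfp352 had an IVF score of 1.68 and a clone score of 4.35.

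Rfpl4b, the gene with the highest IVF score, was not as high in clones. It read 2.12, 3.07, 3.96, 3.66 and 2.96 in cloned 2-cell embryos, against 6.02, 6.12 and 5.53 in IVF embryos. All 5 clones lay below all 3 IVF embryos, with means of 3.15 ± 0.71 in clones (SD, n = 5) and 5.89 ± 0.31 in IVF embryos (SD, n = 3). Within clones it still peaked, 3.10 ± 0.25 above the 1-cell stage and 2.90 ± 0.25 above the 4-cell stage (limma adjusted p = 4.94e-11 and 9.28e-10).

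Further genes of these families also peaked in clones. Symbols that are locus numbers are outside the rule for naming genes, and the 4 that follow were singled out after their values were seen. Gm4850 (chr1:31264847-31268061) read 8.37, 7.87, 8.60, 9.21 and 8.07 in clones, against 8.52, 8.66 and 8.46 in IVF embryos. AU015228 (chr2:130100394-130103375) read 7.56, 8.15, 7.89, 7.56 and 6.34 in clones, against 7.71, 8.79 and 8.58 in IVF embryos. AA414992 (chr13:68181300-68183102) read 6.39, 6.35, 6.88, 7.66 and 7.43 in clones, against 7.48, 7.68 and 8.27 in IVF embryos. In each of these the clones and IVF embryos overlapped. Gm12789 (chr4:101986840-101990231) ran the other way, at 9.57, 9.65, 9.18, 10.02 and 9.62 in clones, against 8.37, 8.78 and 6.07 in IVF embryos, with every clone above every IVF embryo. Within clones the 2-cell stage exceeded the 4-cell stage by 7.39 ± 0.44 in Gm4850, 6.88 ± 0.33 in AU015228, 5.41 ± 0.54 in AA414992 and 6.46 ± 0.49 in Gm12789. The limma adjusted p of these differences lay between 1.90e-14 and 1.20e-08.

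The Tcstv cluster on chromosome 13 held 5 of the 150 genes between positions 119827961 and 120318261 (GRCm38.p6): AF067063, D13Ertd608e, AF067061, BC147527 and Tcstv3. There were 7 measured genes in it, and the other two, Gm20767 and Tcstv1, ranked 215 and 880 by score. The genes of this cluster are similar in sequence, and 3 of the 5 probe sets are of types that the manufacturer marks as matching more than 1 transcript, so the members may share signal. Tcstv3 (chr13:120316862-120318261), a gene of 2-cell embryos and of the 2-cell-like state of embryonic stem cells, read 3.91, 4.46, 3.98, 4.96 and 3.93 in clones, against 5.08, 5.32 and 5.43 in IVF embryos. The 5 clones lay below the 3 IVF embryos with a gap smaller than the range within the clones. In clones Tcstv3 was 2.96 ± 0.62 above the 1-cell stage and 6.24 ± 0.62 above the 4-cell stage (limma adjusted p = 0.000241 and 1.20e-08). D13Ertd608e averaged 7.03 in clones and 7.25 in IVF embryos, and AF067063 averaged 4.99 in clones and 5.64 in IVF embryos, both called as peaking in clones.

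AF067061 was the 1 gene of the families that was not called. It read 3.14, 3.87, 3.23, 4.62 and 3.25 in cloned 2-cell embryos, against 5.33, 4.50 and 5.31 in IVF embryos. Its 2-cell level in clones was 1.80 ± 0.94 above the 1-cell level (limma adjusted p = 0.145) and 5.00 ± 0.94 above the 4-cell level (adjusted p = 0.000156).

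Speer4cos, of a testis-expressed family of glutamate-rich proteins, had the largest mean excess of clones over IVF embryos among the 150 genes, 1.88. It read 5.86, 5.83, 3.45, 4.50 and 5.01 in clones, against 3.57, 3.00 and 2.57 in IVF embryos, so that only clone 3 fell among the IVF embryos. In clones it was 7.59 ± 0.62 above the 1-cell stage (limma adjusted p = 7.65e-11). Its relative Speer8-ps1 averaged 2.79 in clones and 4.54 in IVF embryos. Frg2f1 averaged 5.66 in clones and 5.26 in IVF embryos, and the PRAME family gene Pramel18 averaged 4.48 in clones and 5.75 in IVF embryos. All 3 were called as peaking in clones.

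After the 2-cell stage the families parted between clones and IVF embryos. Over the 16 family genes the median clone minus IVF difference was -0.86 at the 2-cell stage and -2.05 at the 4-cell stage. Over the 60 genes whose next highest IVF mean was at the 4-cell stage, the clone minus IVF median at that stage was -0.93, and 46 of the 60 were lower in clones. Over the 49 whose next highest mean was at the 8-cell stage, the median at that stage was -1.04 and 44 were lower. The rule asked for IVF levels that had dropped by then and so worked against high IVF values there. The grouping by next stage, though, took genes with higher IVF values at that stage and so favours lower clone values. At the 4-cell stage the median of the 49 genes was 0.01. At the 8-cell stage the median of the 60 genes was -0.65. Over all genes the clone minus IVF medians were 0.01 at the 4-cell and 0.04 at the 8-cell stage. These differences are given as descriptions with no test. For all 150 genes the medians were 0.00 at the 1-cell, -0.08 at the 4-cell and -0.56 at the 8-cell stage, 0.02 in morulae and -0.01 in blastocysts. All 5 clones lay below all 3 IVF embryos in 18 genes at the 4-cell stage (7.37% of all genes) and above them in 4 (3.69%). At the 8-cell stage the counts were 36 below (11.2% of all genes) and 16 above (37.1%).

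**Figure D4:**
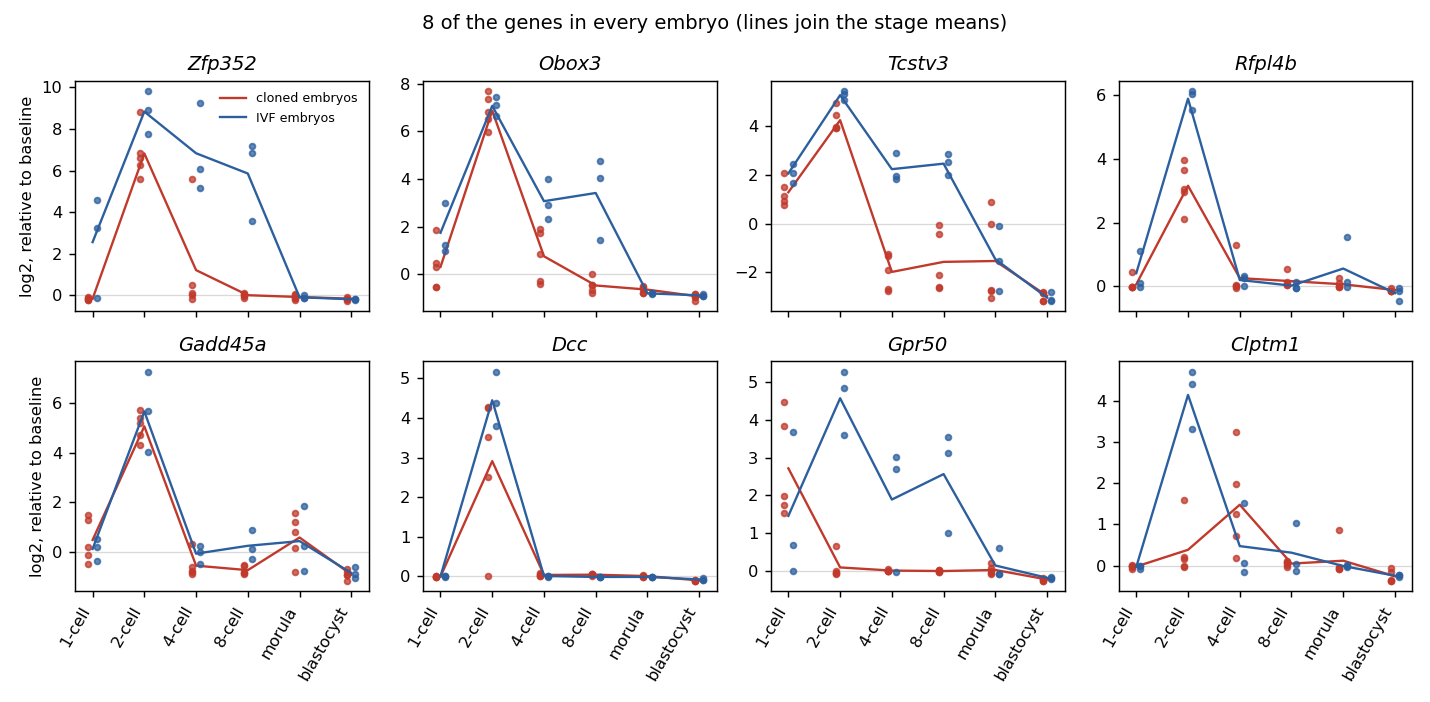
Relative log2 value of 8 genes by stage in clones (red) and IVF embryos (blue), 1 point for each embryo, with lines joining the stage means. Zfp352, Obox3 and Tcstv3 are lower at the 4-cell stage in clones than in IVF embryos, while Gadd45a and Dcc are near their baseline at the 4-cell stage in both.

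By the median of the chosen probe sets, stress and growth arrest genes were the role group in which clones and IVF embryos were closest at the 2-cell stage. The median clone minus IVF difference was 0.07 over 6 genes, with a range of -4.06 to 0.93, and 5 of the 6 peaked in clones. Gadd45a, which encodes a stress sensor induced by DNA damage through p53, read 5.20, 5.73, 4.70, 4.29 and 5.38 in clones, against 4.03, 5.69 and 7.26 in IVF embryos. All 5 clones lay inside the range of the IVF embryos. In clones the 2-cell level exceeded the 1-cell level by 4.59 ± 0.38 and the 4-cell level by 5.62 ± 0.38 (limma adjusted p = 9.98e-11 and 1.31e-11).

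Its relative Gadd45b read 4.17, 4.80, 3.53, 3.69 and 4.59 in clones, against 2.81, 3.82 and 5.59 in IVF embryos. Sesn2, a p53-responsive inhibitor of growth signalling through mTORC1, read 3.96, 3.68, 3.34, 3.01 and 3.31 in clones, against 3.26, 3.34 and 3.59 in IVF embryos. Both pairs of groups overlapped, and within clones the rise since the 1-cell stage was 6.46 ± 0.51 in Gadd45b and 7.75 ± 0.47 in Sesn2 (limma adjusted p = 3.68e-11 and 1.76e-13). Hspa1a, the inducible HSP70 chaperone and a classic marker of genome activation in the mouse, read 2.96, 3.40, 5.23, 3.01 and 5.02 in clones, against 2.89, 3.78 and 2.31 in IVF embryos. Clones 3 and 5 stood above the IVF embryos and the other 3 among them, and of its 5 clone comparisons the one against morulae was closest to the threshold (limma adjusted p = 0.035). Trib3, a pseudokinase gene of the integrated stress response, averaged 4.02 in clones and 3.31 in IVF embryos and also peaked in clones. Other probe sets of these genes that were also highest at the IVF 2-cell stage differed. Their clone minus IVF differences were -1.31 in Sesn2, -0.37 in Trib3, and 1.55 and -0.20 in Gadd45b.

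Plk3, a polo-like kinase of the stress response, did not peak in clones. It read 0.23, 0.14, -0.03, -0.33 and -0.42 in cloned 2-cell embryos, against 4.01, 3.88 and 4.05 in IVF embryos. The clones differed from 1-cell clones by 0.24 ± 0.35 (limma adjusted p = 0.747), and no clone came within 3 log2 units of an IVF embryo.

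Transcription factors and cofactors numbered 18, of which 12 peaked in clones, and in 10 of them all 5 clones lay below all 3 IVF embryos, as in 54 of the 150 genes and 7.89% of all genes. The rule, which took high IVF 2-cell values, favours that direction. The circadian PAR bZIP factor Dbp averaged 4.03 ± 0.37 in clones and 3.57 ± 1.21 in IVF embryos (SD, n = 5 and 3). A further Dbp probe set, with an IVF score of 1.79 and a clone score of 1.14, had a clone minus IVF difference of -1.04. Arid5a, a DNA- and RNA-binding factor that stabilises cytokine mRNA in immune cells, read -0.01, 2.53, 0.01, 3.14 and 2.14 in clones, against 4.45, 4.98 and 4.54 in IVF embryos. Clones 1 and 3 stood at the 1-cell level, the other 3 lay part of the way up, and all 5 were below the IVF embryos. Its clone rise since the 1-cell stage, 1.46 ± 0.39, passed (limma adjusted p = 0.00286), but the peak did not (largest adjusted p = 0.123).

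Pias3, a SUMO ligase that inhibits STAT signalling, read 1.45, 1.96, 1.86, 1.08 and 1.54 in clones, against 3.97, 3.61 and 3.23 in IVF embryos, again with no overlap. It rose by 1.65 ± 0.21 between the 1-cell and 2-cell clones (limma adjusted p = 2.11e-07) and was higher still in clone blastocysts, where the 2-cell stage was lower by -0.78 ± 0.21 (adjusted p = 0.00285). Crebzf, a bZIP partner of CREB and ATF factors, read 0.45, 1.10, -1.87, -1.38 and -1.45 in clones, against 2.69, 3.82 and 2.78 in IVF embryos. Clones 1 and 2 were the higher ones but stayed below every IVF embryo, and the difference between 2-cell and 1-cell clones was 1.01 ± 0.64 (limma adjusted p = 0.246). Tigd3, a gene derived from a pogo-type transposase, was higher in clones, at 6.15, 6.34, 5.10, 5.50 and 5.73, against 4.13, 4.41 and 4.64 in IVF embryos, with no overlap. Tigd3 and Gm12789 were the 2 genes of the 150 in which every clone stood above every IVF embryo, where 4.03% of all genes did.

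Of 5 genes for chromatin factors 4 peaked in clones. Atf7ip2, a partner of the H3K9 methyltransferase SETDB1 in germ cells, read 6.07, 6.08, 4.63, 4.35 and 5.75 in clones, against 4.17, 6.29 and 6.19 in IVF embryos, and overlapped fully. Its clone rise since the 1-cell stage was 5.79 ± 0.52 (limma adjusted p = 3.99e-10), and a pair of further probe sets also peaked at the 2-cell stage, with clone scores of 2.95 and 4.36. The remodelling ATPase gene Srcap averaged 4.35 in clones and 4.06 in IVF embryos. Its other probe sets had IVF scores of -1.61, -0.47 and 0.32 and clone scores of -0.97, 0.76 and -0.27. Kansl1, of a histone acetyltransferase complex, averaged 5.01 in clones and 4.21 in IVF embryos. A further Kansl1 probe set went the other way, with an IVF score of 3.76, a clone score of 1.67 and a clone minus IVF difference of -1.01. The remaining Kansl1 probe sets had IVF scores of -0.29, -0.45 and -0.15 and clone minus IVF differences of 0.05, -0.68 and -0.04. Dido1 averaged 4.69 in clones and 4.01 in IVF embryos. Smarcb1, the core subunit of the SWI/SNF complex, was not called, with -0.01, -0.02, 0.11, 0.67 and -0.05 in clones, against 1.69, 1.85 and 3.71 in IVF embryos. Its other probe sets did not peak in IVF embryos, with scores of -1.44 and -1.22 and clone minus IVF differences of -0.25 and 0.86, so its values rest on 1 probe set.

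Of 13 RNA processing and nucleolar genes 7 peaked in clones. Ccdc86, a nucleolar protein gene, read 0.87, 3.41, 1.17, 1.48 and 0.12 in clones, against 4.82, 5.34 and 5.26 in IVF embryos. Clone 2 stood apart above the other 4 and all were below the IVF embryos. It was 1.45 ± 0.54 higher in 2-cell than in 1-cell clones (limma adjusted p = 0.0327) and 0.47 ± 0.54 higher than in 4-cell clones (adjusted p = 0.57), a difference that turns negative after quantile normalization (-0.11), over the mean of its probe sets (-0.043) and when the replicate 2 clones are dropped (-0.26). Cd3eap, an RNA polymerase I subunit gene, averaged 0.63 in clones and 3.33 in IVF embryos.

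Of the 3 retrocopies known from testis, Utp14b and Papolb peaked in clones and D1Pas1 did not. Utp14b, a ribosome biogenesis retrogene needed for spermatogenesis, averaged 3.12 ± 0.47 in clones and 4.14 ± 0.42 in IVF embryos (SD). Papolb, a testis poly(A) polymerase, averaged 4.51 ± 0.82 in clones and 4.76 ± 0.08 in IVF embryos (SD). D1Pas1, a DEAD-box helicase and the member with the most negative clone minus IVF difference, was singled out after its value was seen. It read -0.10, -0.17, -0.21, -0.07 and 0.21 in clones, against 5.38, 5.85 and 6.79 in IVF embryos, and the 2-cell clones differed from the 1-cell clones by 0.09 ± 0.18 (limma adjusted p = 0.877). The Y-linked deubiquitinase gene Usp9y read -0.01, 0.00, 0.91, -0.01 and 0.22 in clones, against -0.03, 3.91 and 3.22 in IVF embryos. IVF embryo 1 thus lay just below the lowest clones. Another Y-linked gene, Eif2s3y, read between -1.15 and 0.63 in the 5 clones, whose Sertoli cell donors were male, against -5.44, -1.67 and 0.07 in IVF embryos 1, 2 and 3. The oocytes read -5.42 to -5.37. The part of these Y-linked differences in the Usp9y values was not tested.

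Of 13 receptor and cell surface genes 6 peaked in clones. Dcc, the netrin receptor of axon guidance, read 2.51, 3.51, 4.25, 4.27 and -0.00 in clones, against 5.17, 4.39 and 3.79 in IVF embryos. Clone 5 stood at the 1-cell level, clones 3 and 4 lay among the IVF embryos and clones 1 and 2 below them. Dcc was 2.92 ± 0.45 above the 1-cell clones (limma adjusted p = 4.78e-06), and a further probe set gave a clone score of 2.78. Antxr1, an anthrax toxin receptor of the cell surface, read 4.32, 5.10, 5.02, 4.93 and 3.62 in clones, against 5.36, 6.13 and 4.82 in IVF embryos. Ceacam1, a cell adhesion molecule of epithelia and immune cells, read 4.08, 4.87, 4.40, 6.01 and 3.56 in clones, against 2.53, 3.99 and 3.54 in IVF embryos, with 4 clones above every IVF embryo. Its probe set can match transcripts of related genes, and of its 7 other probe sets 2 peaked at the 2-cell stage in IVF embryos.

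Gpr50, an X-linked orphan receptor related to the melatonin receptors, had the lowest clone score of the 150. It read -0.04, -0.00, -0.05, -0.08 and 0.66 in cloned 2-cell embryos, against 5.27, 4.84 and 3.61 in IVF embryos, with a wide gap between the groups. In 1-cell clones it averaged 2.72, and it fell by 2.62 ± 0.35 by the 2-cell stage (limma adjusted p = 5.04e-07). It was the 1 gene of the 150 called lower in 2-cell than in 1-cell clones. Cd47, the signal that restrains engulfment by macrophages, read 2.89, 2.98, 1.38, 2.42 and 0.86 in clones, against 2.57, 3.64 and 3.94 in IVF embryos, with overlap. It was 3.07 ± 0.53 higher in 2-cell than in 1-cell clones (limma adjusted p = 2.22e-05), and its highest clone mean was in blastocysts, with a clone score of -2.59.

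Among 6 neuronal and synaptic genes 4 peaked in clones. Cbln1, a synapse organiser of the cerebellum, averaged 4.99 in clones and 6.86 in IVF embryos. Syt17, of the synaptotagmin family, read 0.34, 1.95, -0.03, -0.05 and -0.00 in clones, against 1.76, 3.80 and 5.38 in IVF embryos. Clone 2 alone reached the lowest IVF embryo, and the difference between 2-cell and 1-cell clones was 0.48 ± 0.72 (limma adjusted p = 0.776). Rims3, a presynaptic gene, stayed between -0.06 and -0.01 in the 5 clones, against 3.17, 1.83 and 3.02 in IVF embryos. Nefl, the light neurofilament gene, varied between embryos of 1 group, at -0.00, -0.00, 1.03, 4.79 and 3.24 in clones, against 5.59, -0.00 and 4.47 in IVF embryos.

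Hormad1, which organises the axes of meiotic chromosomes, read 1.37, -0.71, 0.54, 0.58 and -2.00 in clones, against 2.17, 4.52 and 4.30 in IVF embryos. Every clone lay below every IVF embryo. The 2-cell clones were 2.39 ± 0.78 above the 1-cell clones (limma adjusted p = 0.0142) and differed from 4-cell clones by -0.09 ± 0.78 (adjusted p = 0.956), and clone morulae had a higher level. Dna2, a nuclease and helicase of replication and repair, averaged 3.94 ± 0.67 in clones and 4.30 ± 0.93 in IVF embryos (SD) and peaked in clones. G2e3, a ubiquitin ligase whose name comes from its expression in G2 phase, read 5.94, 5.90, 5.96, 6.07 and 5.85 in clones, against 6.83, 5.01 and 5.55 in IVF embryos. The clones were closer to each other than the IVF embryos were. In clones G2e3 exceeded the 4-cell stage by 5.42 ± 0.50 (limma adjusted p = 3.18e-09). Its other probe sets did not peak in clones, with IVF scores of 0.85 and -1.02 and clone scores of -2.12 and -1.24. Their clone minus IVF differences were -3.09 and -1.09, so the clone peak of G2e3 rests on 1 probe set.

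Among 12 transporters and metabolic enzymes 6 peaked in clones. Slc16a4, a monocarboxylate transporter family gene, read 5.26, 1.19, 5.65, 1.16 and 5.57 in clones, against 4.06, 6.58 and 5.54 in IVF embryos. Clones 1, 3 and 5 lay among the IVF embryos and clones 2 and 4 far below them, and the peak was still called (largest limma adjusted p = 0.00023). Hs6st2, an X-linked heparan sulfate sulfotransferase gene, read 5.44, 4.63, 5.11, 5.82 and 4.63 in clones, against 6.02, 3.73 and 2.26 in IVF embryos, with the IVF embryos more spread than the clones. Mmp19, a matrix metalloproteinase gene, read 4.26, 3.01, 3.76, 3.95 and 3.73 in clones, against 4.28, 3.86 and 3.77 in IVF embryos, and was 3.76 ± 0.15 above the 1-cell clones (limma adjusted p = 2.23e-17). Ubfd1, a ubiquitin domain gene, read 6.40, 4.85, 5.27, 5.46 and 6.63 in clones, against 7.26, 7.40 and 5.69 in IVF embryos. Synm, a gene for an intermediate filament protein of muscle, read 2.50, 2.72, 1.56, 3.78 and 0.08 in clones, against 2.47, 4.95 and 1.96 in IVF embryos.

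Clptm1, a membrane protein gene named for its place beside a cleft lip locus, stood high in IVF 2-cell embryos, while in clones its highest mean was at the 4-cell stage. It read 1.59, 0.00, 0.21, -0.04 and 0.17 in cloned 2-cell embryos, against 4.70, 4.40 and 3.32 in IVF embryos. Clone 1 was the highest clone and lay well below the IVF embryos. Cloned 4-cell embryos averaged 1.48 and IVF 4-cell embryos 0.47, and in clones the 2-cell stage was lower than the 4-cell stage, with a difference of -1.09 ± 0.37 (limma adjusted p = 0.0246). It was the 1 gene of the 150 called lower at the 2-cell than at the 4-cell stage of clones.

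**Figure D5:**
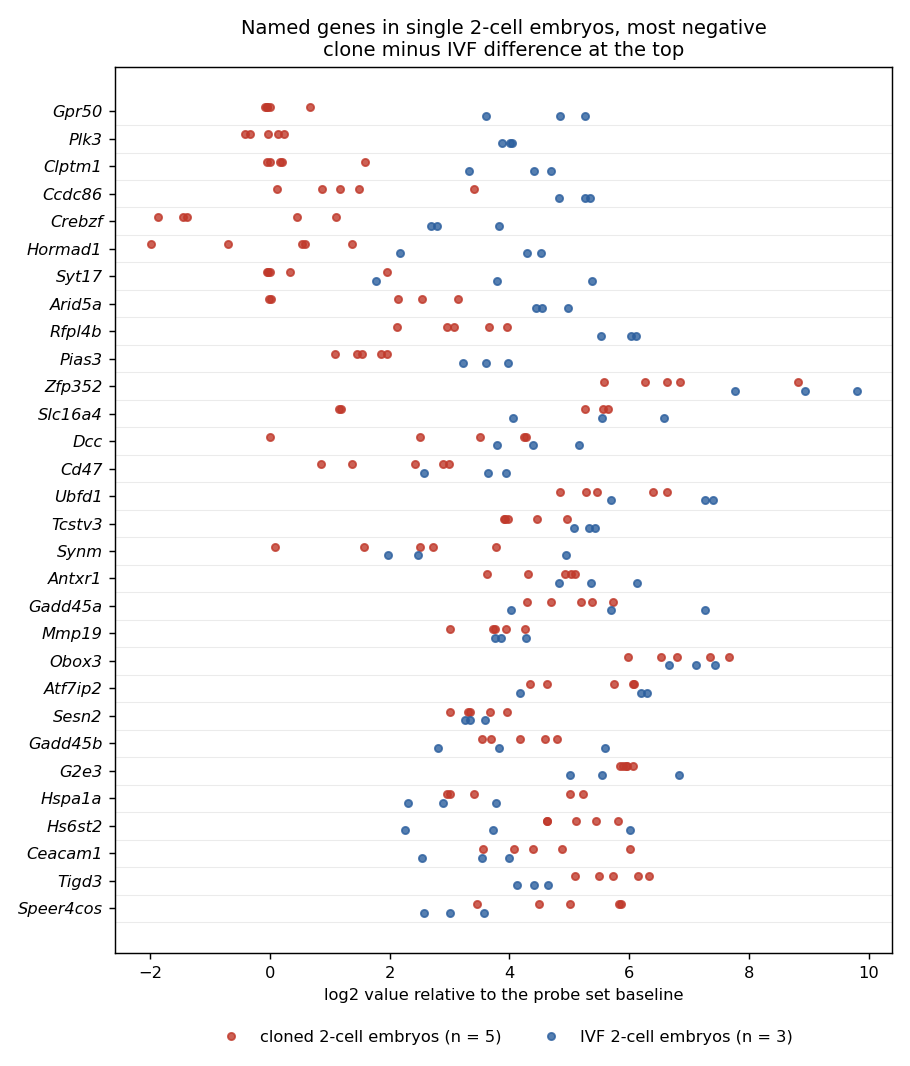
Relative log2 value of the genes named by rule in each cloned (red, upper points) and IVF (blue, lower points) 2-cell embryo, ordered by the clone minus IVF difference. Gpr50, Plk3 and Clptm1 at the top show no overlap between the groups, the middle rows overlap, and Tigd3 near the bottom has every clone above every IVF embryo.

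Set against IVF embryos, the 150 genes were lower in cloned 2-cell embryos by a median of -1.11, with quartiles of -1.96 and -0.22, against 0.00 over all genes. Lower in clones were 121 genes, 82 of them by at least 1 log2 unit, and higher were 29, of which 7 by at least 1. All 5 clones lay below all 3 IVF embryos in 54 genes, as they did in 7.89% of all genes. The genes were chosen for high values in these 3 IVF embryos, so a lower clone value is favoured by the choice, and no test is given. To have an IVF embryo outside the score, the 150 genes were chosen again without each IVF 2-cell embryo in turn. This kept 122, 126 and 126 of them. The probe sets stayed those chosen over all arrays, the left-out embryo included. Against the left-out embryo, the clone median was -0.48 for embryo 1, -0.91 for embryo 2 and -0.95 for embryo 3. The left-out embryo was above all 5 clones in 60, 78 and 72 of the 150 genes, where it was in 21.7%, 26.0% and 20.8% of all genes. It was below all 5 clones in 31, 21 and 22 of them (18.0%, 13.0% and 23.2% of all genes).

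The probe sets set a limit to single genes. For 66 of the 150 genes there was 1 probe set. Of the 84 with others, 52 had another whose mean was also highest at the IVF 2-cell stage, by any margin, and 32 had none. In 28 of the 52 another probe set had an IVF score of at least 1. Slc16a4, Antxr1, Mmp19, Clptm1, Ubfd1, Gpr50, Cd47, Syt17, Smarcb1, Nefl and Nrarp are among the 32, so for them the peak rests on 1 probe set. The probe set of each gene was the one with the largest SD over all 51 arrays, which include the clones. A probe set that varied among clones as well was more likely to be taken. The clone tests are thus not fully separate from the choice of probe set. Over the mean of all probe sets of a gene, 93 of the 150 genes peaked in clones (62%, against 2.66% of all genes).

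Lists of related genes were set beside the 150. Over all genes, 16.7% were higher and 24.6% lower in 2-cell than in 1-cell clones, and 14.7% were higher and 15.1% lower than in 4-cell clones. On a list of 48 zygotic activation and 2-cell genes 31 were measured and 5 are among the 150 (Rfpl4b, Obox3, Tcstv3, Hspa1a and Zfp352). In clones 22 of these 31, the 5 included, were higher at the 2-cell than at the 1-cell stage and 4 lower, and 14 were higher than at the 4-cell stage and 6 lower. The peak was called for 11 of the 31, of which Usp17la, Tdpoz1, Lmx1a, Kdm5b, Spz1 and Ccnjl are not among the 150. Usp17la, a deubiquitinase gene of the 2-cell embryo, is outside the 150, since it averaged 7.30 in IVF 1-cell embryos already and 7.53 at the IVF 2-cell stage. In clones it averaged -0.46 at the 1-cell and 7.41 at the 2-cell stage. Of 60 nucleolar ribosome biogenesis factors 0 are among the 150; 44 were higher in 2-cell than in 1-cell clones, and 3 were higher and 20 lower than in 4-cell clones. Their median difference between 2-cell and 4-cell clones was -0.44. Of 22 p53 targets and cell death genes 3 are among the 150 and 4 peaked in clones, Mdm2 being the other. Of 25 maternal oocyte factors 23 were lower in 2-cell than in 1-cell clones.

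Markers of other cells were measured beside these results. Of 15 Sertoli cell markers 4 were higher in 2-cell than in 1-cell clones, of 15 cumulus cell markers 1, and of 17 sperm and late germ cell markers 1, where 16.7% of all genes were. The mean of the Sertoli markers lay between 0.35 and 0.80 on the clone 2-cell arrays and between -0.83 and -0.35 on the clone 1-cell arrays, against 0.26 to 0.49 on the IVF 2-cell arrays. That of the cumulus markers lay between 0.07 and 0.34 on the clone 2-cell arrays, against 0.09 to 0.17 on the IVF 2-cell arrays. That of the sperm markers lay between 0.18 and 0.47 on the clone 2-cell arrays, against 0.06 to 0.20 on the IVF 2-cell arrays. Their part in the results was not tested. In 1 cloned 8-cell embryo, replicate 4, the Y-linked gene Eif2s3y read -5.25, near the -5.42 to -5.37 of oocytes, although donor nuclei were male and the other 8-cell clones read -2.70 to 1.23. Without that embryo 90 of the 150 genes peaked in clones.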

How the data were processed

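The data were 51 arrays with 45101 probe sets. Per the submitters' processing notes the authors made the deposited log2 values with RMA (version not given in the sources used here). The base of the logarithm was taken from the values: 1 probe set spans 13.8 units, more than the 11.1 units of a 16-bit scanner in natural logarithms. In 94.3% of probe sets exactly 1 array is at 0, so each probe set had been centred, a step no label mentions. Arrays have no read depth, and the number of embryos limits the precision. Of the probe sets 34958 had 1 gene symbol, from GEO's platform annotation, 932 had several and 9147 none (64 more were controls). The probe set with the largest SD stood for each of 18194 genes.

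Clones were tested alone, in 1 limma 3.58.1 fit (lmFit and eBayes, R 4.3.3) of 30 arrays with stage means, using the Benjamini-Hochberg adjustment across all genes and a threshold of 0.05. The fit was tested on simulated data. Differences from IVF embryos have no test. Replicate numbers were not treated as pairs: residual correlations of same-numbered clones lay between -0.07 and 0.07.

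The 150 genes and the lists were chosen with earlier results of these data known. Genes named by rule, symbols that are locus numbers left out, are the 12 highest IVF scores, the 6 highest and 6 lowest clone scores, the 4 lowest and 4 highest clone minus IVF differences at the 2-cell stage, the 3 just inside and 3 just outside the cut, and those in the fixed lists. Promoters are from RefSeq (GRCm38.p6), as are gene positions, which matched 148 of the 150 genes. The alternatives tried are array centring, quantile normalization, a filter on low SD, other probe sets, a fit of all arrays, a control covariate, other numbers of genes and embryos left out.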

Additional observations from a re-analysis of the deposited data

Results flagged for a closer look

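In 6 of 46 groups of 5 clones examined, 1 embryo stood apart from the other 4 by more than Dixon's 95% limit of 0.71. For normally distributed values chance gives about 1 in 20 groups. Where the other clones lay close together near the baseline, that rate does not hold, so the count is no measure of an excess. Clptm1 read 1.59 in the 2-cell clone of replicate 1, against 4.70, 4.40 and 3.32 in IVF embryos. The other 4 clones read -0.04 to 0.21. Gpr50 read 0.66 in the 2-cell clone of replicate 5, where the other clones read -0.08 to -0.00 and the IVF embryos 3.61 to 5.27. Syt17 read 1.95 in the 2-cell clone of replicate 2, where the other clones read -0.05 to 0.34 and the IVF embryos 1.76 to 5.38. Usp9y read 0.91 in the 2-cell clone of replicate 3, where the other clones read -0.01 to 0.22 and the IVF embryos -0.03 to 3.91. Smarcb1 read 0.67 in the 2-cell clone of replicate 4, where the other clones read -0.05 to 0.11 and the IVF embryos 1.69 to 3.71. The 5 high values come from 5 different embryos. At the 8-cell stage the median over the 150 genes was 0.07 (0.0664) in the clone of replicate 2, higher than in the other 4 clones and below the 0.41 to 0.67 of the IVF embryos.
Rims3 and Gm1123 stood above the 4-cell stage in every IVF 2-cell embryo and below it in every cloned 2-cell embryo. The clone 2-cell minus 4-cell difference was -0.12 in Rims3 and -0.025 in Gm1123. Clone values of both genes lay near their baseline at both stages, so the sign of that difference carries little weight. In IVF embryos Rims3 read 1.83 to 3.17 at the 2-cell and -0.01 to 0.21 at the 4-cell stage. Gm1123 read 1.18 to 3.79 and -0.0003 to 0.07 there. Both genes were chosen for high IVF 2-cell values, their clone differences are small, and the difference between clones and IVF embryos was not tested.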

How the results depend on the processing

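The share of the 150 genes called higher at the 2-cell than at the 1-cell stage of clones, called higher than at the 4-cell stage, and called as peaking kept within 1.5 times its value under every alternative run. With 1 replicate of each clone stage left out these shares were 77.3% to 83.3%, 62.7% to 67.3% and 52.7% to 58.7%. Quantile normalization of the clone arrays gave 78%, 52% and 42.7%. The replicate block gave 84%, 72% and 60.7% (126, 108 and 91 genes, against 128, 109 and 92). With 300 genes in place of 150 the share that peaked was 51.3%. The median clone minus IVF difference at the 2-cell stage lay between -1.20 and -1.02 with 1 embryo left out. It was -0.76 over the mean of all probe sets of a gene, and -0.48 when IVF embryo 1 took no part in the score. The cause of these shifts was not tested. Of 780 values for 60 single-gene differences, 754 kept their direction and side of the threshold, 14 lost the threshold and 2 gained it. The other 10 turned in sign, none of them past the threshold at first. For the 2-cell minus 4-cell difference in clones these were Ccdc86 (-0.11 after quantile normalization, -0.043 over the mean of its probe sets, -0.26 without replicate 2), Synm (-0.36 after quantile normalization), Gpr50 (-0.046 to 0.13 with 1 replicate left out, negative without replicate 5), Crebzf (-1.16 to 0.50, positive without replicate 4) and Hormad1 (-1.14 to 0.34, negative only without replicate 1). Signal over background could not be judged, since values are centred and detection calls were not used here.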

Other observations

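Over all 18194 genes, those chosen on the IVF arrays included, 479 peaked at the 2-cell stage of clones, and 92 of them are among the 150. On the list of zygotic activation and 2-cell genes, Tdpoz1, of a BTB and TRAF domain family, averaged 5.61 in cloned and 6.09 in IVF 2-cell embryos, and 0.73 in cloned and 4.44 in IVF 4-cell embryos. Spz1, a testis transcription factor gene, averaged 6.15 in cloned and 7.08 in IVF 2-cell embryos. Ccnjl, a cyclin J-like gene, averaged 3.80 in cloned and 0.29 in IVF 2-cell embryos, and Lmx1a, a homeobox gene of the developing brain, averaged 1.61 in cloned and -0.01 in IVF 2-cell embryos, so both peaked at this stage in clones while their IVF scores were 0.16 and -1.81.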
